A study of Mus musculus with 15 samples.

Results

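Among the kidney arrays of 7-day-old mice, the level of Ucp1, the uncoupling protein of brown fat, differed 17.2-fold between the highest and the lowest array, and a small group of genes followed the same course over the arrays. These genes were chosen by their values on the 5 arrays of that age alone: a Pearson correlation with Ucp1 of at least 0.9, a standard deviation (SD) of at least 0.3 and a mean above 6.5 on the log2 scale, with the brightest probe taken for each gene. Of 15967 genes, 16 met these limits, Ucp1 itself among them with a correlation of 1 by construction. Of the 16, 6 are on the lists of adipocyte genes used here (Ucp1, Cidea, Cox8b, Adipoq, Car3 and Cidec). They are called fat genes below. The other 10 are on neither of those lists (Mgst1, Sparc, Hnrnpa2b1, Dynll2, Dlk1, Upk2, Krt14, Sprr1a, Ly6d and Fxyd3). Absence from the lists does not show that fat cells do not make a gene. The PN7d values of all 16 were used in the choice, so they are a description, and no test was applied to them.

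The study profiled RNA of whole kidneys from untreated BALB/c mice, male by the study's methods, on MouseRef-8 bead arrays of Illumina, with 1 RNA sample to an array. There were 5 arrays at embryonic day 16 (E16d), 5 at postnatal day 1 (PN1d) and 5 at postnatal day 7 (PN7d). The labels do not say whether a sample was 1 animal or a pool, and the study's methods speak of biological triplicates where the labels give 5 samples per age, so the p-values below cover only the spread among the samples, which may be technical. Kidney markers were bright at PN7d, with means of 13.53 for Slc34a1, the phosphate transporter of the proximal tubule, 12.38 for Slc12a1, the transporter of the thick ascending limb, and 12.03 for the podocyte gene Podxl, and arrays of the same age correlated at 0.990 to 0.997.

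Brown adipocytes burn fatty acids to make heat: Ucp1 lets protons flow back across the inner mitochondrial membrane without making ATP, and a lipid droplet machinery that includes the CIDE proteins stores and releases the fuel. In newborn mice brown fat lies between the shoulder blades and also around the kidneys and the aorta. White and brown adipocytes share a set of genes for hormones and lipid storage, among them adiponectin.

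Ucp1 stood at 12.17 log2 on PN7d array 1, 8.07 on array 2, 10.07 on array 3, 11.71 on array 4 and 11.07 on array 5. Its 5 E16d arrays lay between 5.90 and 5.97 and its 5 PN1d arrays between 5.88 and 6.08, all below 6.22, the median of all values in the table, which is used here as the level of dim probes. Every PN7d array, the lowest included, was thus above every array of the earlier ages, and Ucp1 was at least 21.1-fold higher at PN7d than at either, where the bound sets the dimmer age at the median of all values. In bulk RNA of this kind, fewer cells of a type and less RNA per cell cannot be told apart.

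Cidea, a lipid droplet protein abundant in brown fat, stood at 9.46, 6.91, 7.90, 8.44 and 8.54 on PN7d arrays 1 to 5 (mean 8.25 ± 0.94, SD, n = 5), against 5.94 ± 0.030 at E16d and 6.0 ± 0.038 at PN1d. Cox8b, a subunit of cytochrome c oxidase found in brown fat and striated muscle, stood at 10.18, 7.07, 8.59, 9.11 and 9.17 (8.82 ± 1.14), against 5.90 ± 0.049 and 5.92 ± 0.016. Adipoq, which encodes the hormone adiponectin, stood at 9.33, 6.58, 7.84, 8.57 and 8.41 (8.14 ± 1.02), against 6.0 ± 0.066 and 5.91 ± 0.051. In these 3 genes array 1 was the highest and array 2 the lowest, and array 2 was still above every E16d and PN1d array. The bounds on the PN7d increase over either earlier age were 6.07-fold for Cox8b, 4.09-fold for Cidea and 3.80-fold for Adipoq.

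Car3, a cytosolic carbonic anhydrase abundant in adipocytes and muscle, came closest to the course of Ucp1, with a correlation of 0.995 over the 5 PN7d arrays. Its values were 10.90, 7.20, 8.76, 10.40 and 9.60 on arrays 1 to 5, a 13-fold span. Unlike the 4 genes above it was measurable in the embryo, at 6.5 to 6.98 over the E16d arrays, and lower at PN1d, at 6.08 to 6.36. The second Car3 probe had the same highest and lowest PN7d arrays (8.49 on array 1, 6.06 on array 2) and a correlation of 0.94 with Ucp1, but was under 6.22 on every E16d and PN1d array, so it could not follow the earlier difference. Cidec, the lipid droplet fusion protein of fat cells, was the dimmest of the 6, at 7.32, 6.24, 6.68, 6.92 and 6.65, and its lowest PN7d array overlapped the PN1d range of 6.20 to 6.34.

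**Figure D1:**
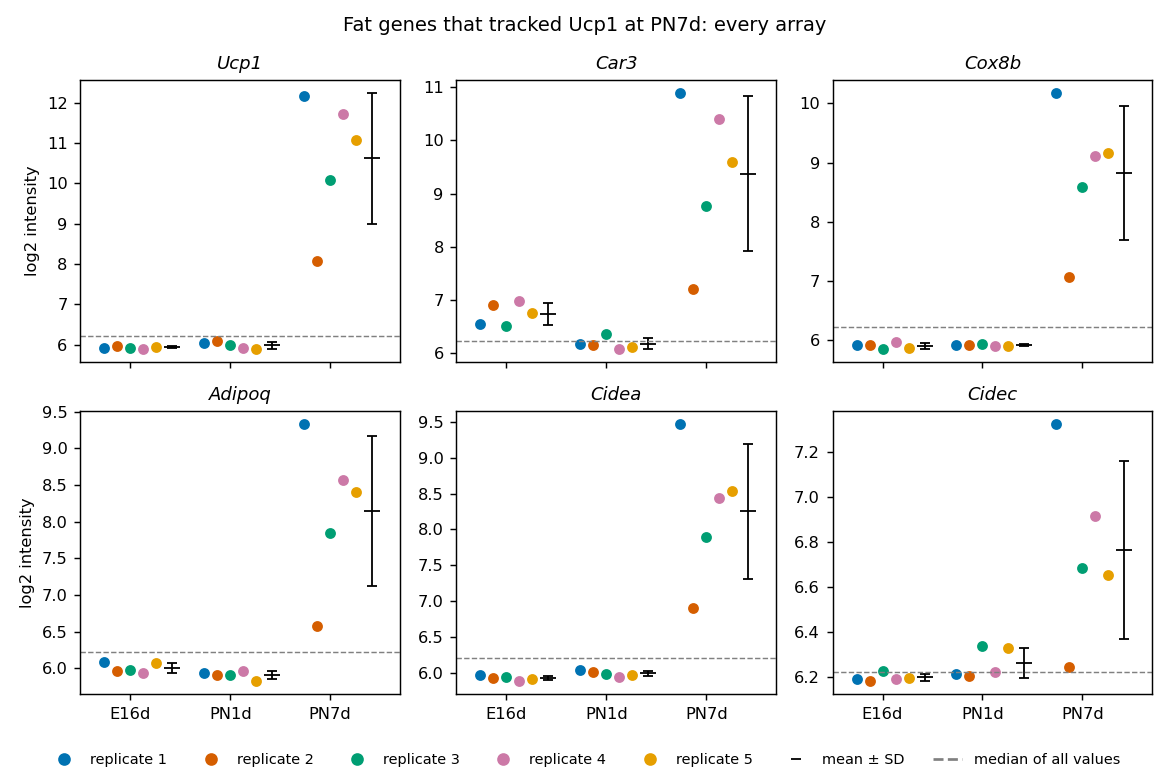
Log2 intensity (vertical axis, a separate scale for each gene) of the 6 fat genes on every array, by age. Points are single arrays coloured by replicate number, the black bar beside them is the mean ± SD of 5 arrays, and the dashed line is the median of all values, 6.22. Ucp1, Cox8b, Adipoq and Cidea lie below that line on all E16d and PN1d arrays, and PN7d replicate 2 is the lowest PN7d array in all 6 genes.

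Promoter sequences from RefSeq (mouse build GRCm38.p6, each from 250 bases before to 50 after the annotated start) were held for 11 of the 16 genes, and 4 are printed as those of genes that moved together: 3 fat genes and Sprr1a, an epithelial gene that kept the same order of arrays as Ucp1. They lie at chr8:83290098-83290397 (plus strand) for Ucp1, chr7:140900397-140900696 (minus) for Cox8b, chr16:23146286-23146585 (plus) for Adipoq and chr3:92485832-92486131 (minus) for Sprr1a, and run 5′ to 3′ with the motifs found in capitals.
Ucp1: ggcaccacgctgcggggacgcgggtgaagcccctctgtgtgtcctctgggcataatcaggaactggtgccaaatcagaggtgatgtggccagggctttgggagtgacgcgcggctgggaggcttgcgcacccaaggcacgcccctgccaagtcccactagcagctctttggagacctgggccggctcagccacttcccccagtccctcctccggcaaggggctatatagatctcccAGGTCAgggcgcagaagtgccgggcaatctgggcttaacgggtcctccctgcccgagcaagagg
Cox8b: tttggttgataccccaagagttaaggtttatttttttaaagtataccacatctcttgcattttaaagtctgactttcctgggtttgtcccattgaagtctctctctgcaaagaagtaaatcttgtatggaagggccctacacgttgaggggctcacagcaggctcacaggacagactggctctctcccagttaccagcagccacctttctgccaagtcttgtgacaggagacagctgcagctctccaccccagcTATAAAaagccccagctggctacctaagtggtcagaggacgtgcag
Adipoq: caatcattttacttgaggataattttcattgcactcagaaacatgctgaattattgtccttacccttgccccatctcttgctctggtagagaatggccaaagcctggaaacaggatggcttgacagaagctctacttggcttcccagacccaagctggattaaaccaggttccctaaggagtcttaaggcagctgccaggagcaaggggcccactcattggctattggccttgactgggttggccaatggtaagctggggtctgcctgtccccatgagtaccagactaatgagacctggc
Sprr1a: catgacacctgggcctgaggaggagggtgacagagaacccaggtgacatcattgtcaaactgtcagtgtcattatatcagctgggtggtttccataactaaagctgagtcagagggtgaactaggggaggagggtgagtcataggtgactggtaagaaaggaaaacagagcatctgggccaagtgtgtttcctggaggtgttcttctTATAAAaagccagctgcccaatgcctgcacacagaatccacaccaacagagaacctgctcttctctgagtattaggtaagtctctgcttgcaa
The capitals mark AGGTCA, the core recognition site of nuclear receptors, in Ucp1, and TATAAA, the letters of a TATA box, in Cox8b and Sprr1a. Counted from the annotated start as 0, TATAAA began at -43 in Sprr1a but at 4 in Cox8b, after the start, where a TATA box for that start does not lie. Both strands were searched for 5 motifs. AGGTCA was in 1 of the 11 windows, that of Ucp1, against 16.2% of all 12848 genes with a window. TATAAA was in 2 of the 11 against 14.3%, and TTGCGCAA, the C/EBP palindrome, in the window of Hnrnpa2b1 against 0.272%. TCAAGGTCA, the site of estrogen-related receptors, whose last 6 letters are the nuclear receptor site above, and TGACGTCA, the cyclic AMP response element, were in 0 of the 11, against 0.335% and 2.76% of all genes. A match describes the letters in the window and not a bound site. Adipoq, the fat gene whose course was nearest to Ucp1 after Car3, had 0 of the 5 motifs in this window.

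Most of the other 10 genes were measurable before birth as well, in contrast to the fat genes: 8 of them lay above 6.22 on all 5 E16d arrays, against 1 of the 6 fat genes. Of those 10, 5 are known from the urothelium or from stratified epithelia, which line the urinary tract and the skin. Upk2, a uroplakin of the urothelial surface, stood at 8.14, 6.87, 7.09, 7.86 and 7.86 on PN7d arrays 1 to 5. Krt14, a keratin of basal epithelial cells, stood at 7.51, 6.69, 6.97, 7.27 and 7.21. Sprr1a, a precursor of the cornified envelope, stood at 7.46, 6.46, 6.78, 7.18 and 7.13. In all 3 genes array 2 was the lowest and array 3 the second lowest, as for Ucp1, but the span from lowest to highest array was small, at 2.41-fold, 1.77-fold and 2.01-fold. Ly6d, a surface protein of stratified epithelia, stood at 7.68, 6.12, 6.31, 7.14 and 6.75, and Fxyd3, a small regulator of the sodium pump, at 7.24, 6.44, 6.63, 7.13 and 6.80. Both kept the order of Ucp1 on all 5 arrays.

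At the earlier ages, which the choice of genes did not use, most of these epithelial genes again ran together, in arrays where Ucp1 was at the level of dim probes. At E16d, arrays 2 and 4 were the highest for Upk2 (8.67 and 8.51, the others 7.49 to 7.82), Fxyd3 (7.88 and 7.51, the others 7.09 to 7.36) and Sprr1a (7.07 and 6.92, the others 6.57 to 6.69). At PN1d, arrays 2 and 3 were the highest for Upk2 (8.58 and 8.73, the others 7.51 to 7.94), Ly6d (6.92 and 7.02, the others 6.07 to 6.24), Sprr1a (7.40 and 7.52, the others 6.78 to 7.08) and Fxyd3 (7.37 and 7.11, the others 6.80 to 6.94). Krt14 did not share these pairs, with array 3 the highest at E16d and array 4 at PN1d. Ly6d at E16d lay below 6.22 on all arrays and has no order there. These pairs were not particular to the epithelial genes. At E16d, arrays 2 and 4 were also the highest for the fat gene Car3 (6.91 and 6.98, the others at most 6.75). The same held for Sdc4, which is not a member (9.64 and 9.47, the others 8.99 to 9.21). Dynll2 had the PN1d pair (7.67 and 7.68, the others 7.51 to 7.65), but Car3 and Sdc4 did not. The share of all genes with either pair was not counted. The likeness among the epithelial genes was noticed in the values and was not tested.

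A list of urothelial and stratified epithelial genes was written after these members were seen, so it is no independent support. Of its 22 measured genes, 5 were members, 8 had a PN7d mean of at most 6.5, 7 had an SD under 0.3 and 2 had a correlation under 0.9. Trp63, the master regulator of stratified epithelia, had a correlation of 0.93 but an SD of 0.098. The bright genes of that list did not follow Ucp1: Krt7, a keratin of simple and urothelial epithelium, had a PN7d mean of 11.33 with a correlation of 0.44, and Psca, a surface protein of the urothelium, 9.19 with 0.21. The members were selected on these arrays, so list levels are given without them. The 17 other epithelial genes had mean log2 levels between 7.18 (array 2) and 7.25 (array 4), and 7 of them were lowest on array 2, where 20.9% of all genes were.

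Mgst1 and Sparc had spans as wide as the fat genes, but of another shape. Mgst1, a membrane-bound glutathione transferase, stood at 10.36, 6.23, 9.19, 9.26 and 9.42 on PN7d arrays 1 to 5, a 17.5-fold span. Its 10 E16d and PN1d arrays all lay between 9.95 and 10.44. PN7d arrays 3, 4 and 5 were also below that range, but array 2 alone was down at the level of dim probes. Sparc, a secreted matrix protein and the only member on the list of fibroblast and matrix genes, stood at 10.83, 7.77, 10.08, 10.47 and 10.86, and between 9.92 and 10.97 on the 10 earlier arrays. In both genes 1 array accounts for most of the spread: without PN7d array 2 their correlations with Ucp1 were 0.72 and 0.72, and their SDs were 0.54 and 0.37 in place of 1.56 and 1.29. Dcn, the brightest gene of the matrix list, was at 11.97 on array 2 and 11.79 to 12.07 on the others, so a low array 2 was not shared by that gene.

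Hnrnpa2b1, an RNA-binding protein of the splicing machinery, stood at 9.42, 8.22, 8.97, 9.21 and 9.26 on the PN7d arrays, all below its E16d range (10.66 to 11.12) and its PN1d range (9.85 to 10.61). A second bright probe of the gene fell less on array 2 (8.68, the others 8.93 to 9.14) and had a correlation of 0.73 with Ucp1 and an SD of 0.19, so the membership of this gene rests on 1 probe. Dynll2, a light chain of dynein and myosin motors, stood at 7.52, 6.82, 7.22, 7.59 and 7.48, against 7.87 to 8.08 at E16d. Its other probe was below the median of all values on every array and tells nothing of the course.

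Dlk1, also called Pref-1, is a membrane protein of the Notch ligand family, made by preadipocytes and by many fetal tissues and switched off as fat cells mature. It stood at 7.40, 6.5, 6.84, 7.38 and 6.81 at PN7d, with arrays 1 and 4 the highest as for Ucp1. Its levels ran down with age, from 8.05 to 8.66 at E16d through 7.30 to 7.83 at PN1d, so all PN7d arrays lay below all E16d arrays while overlapping those of PN1d. It was on none of the gene lists.

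**Figure D2:**
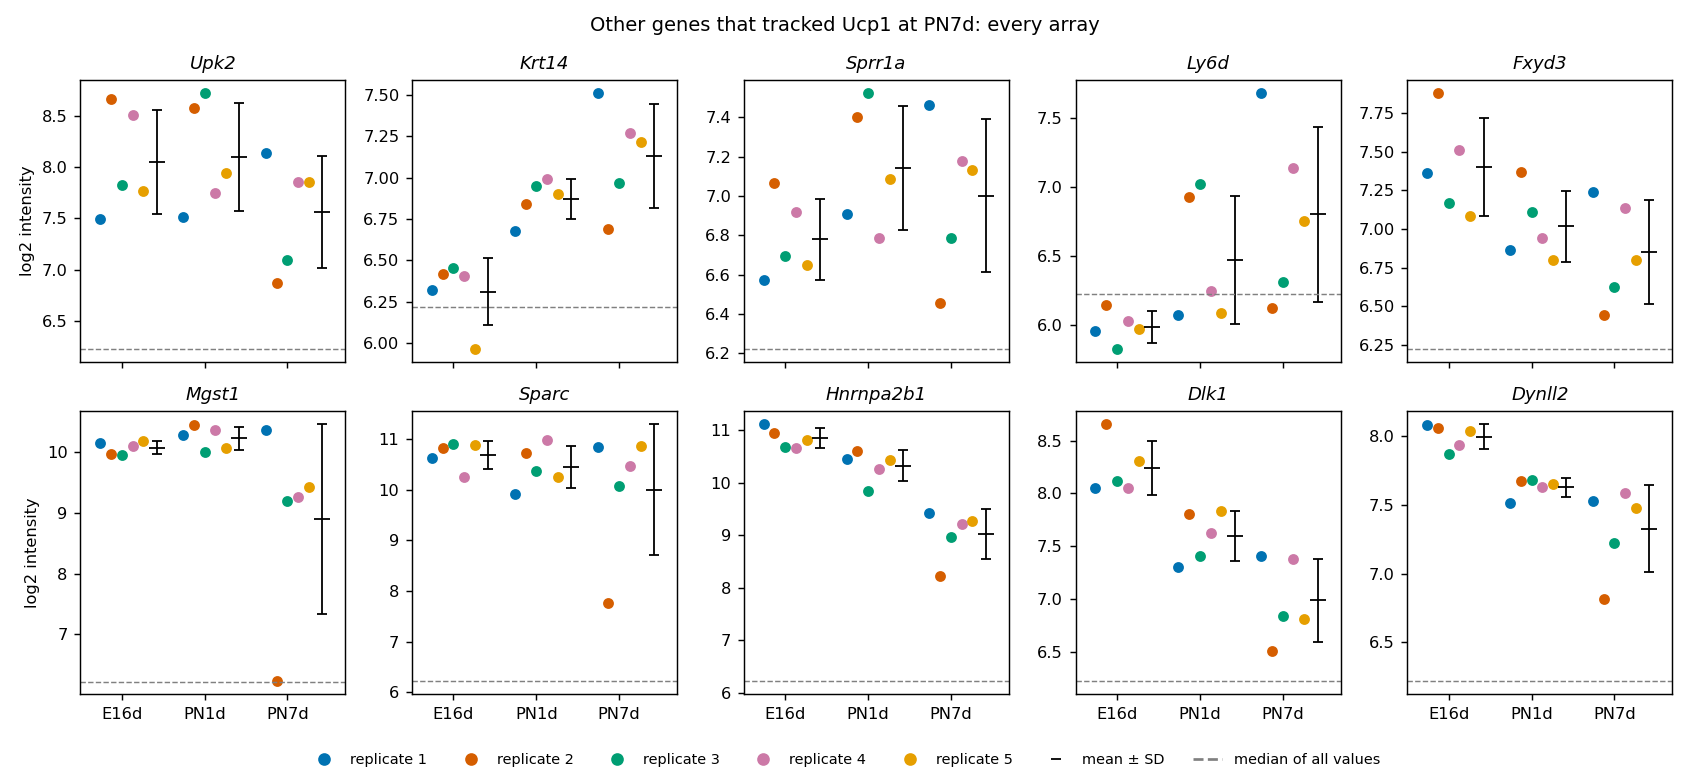
Log2 intensity (vertical axis, a separate scale for each gene) of the 10 genes that are on neither adipocyte list, by age. Points are single arrays coloured by replicate number, black bars are the mean ± SD of 5 arrays, and the dashed line is the median of all values. Upk2 is highest on replicates 2 and 4 at E16d and on replicates 2 and 3 at PN1d, and for Mgst1 and Sparc PN7d replicate 2 lies far below the other arrays.

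Over the 5 PN7d arrays, all 16 genes were lowest on array 2 and 14 were highest on array 1; the exceptions were Sparc, highest on array 5, and Dynll2, highest on array 4. The full order of Ucp1 was kept by 7 of the 16, Ucp1 included. These orders follow in large part from the correlation limit, so nothing is read from the counts. Among the 455 genes past the SD and mean limits, members included, 86 (18.9%) were lowest on array 2 and 9 (1.98%) kept the full order. The change per log2 unit of Ucp1 ran from 0.22 for Cidec to 0.89 for Car3 in the other fat genes and from 0.19 for Krt14 to 0.90 for Mgst1 in the remaining genes. Array 2 was not the array that stood out most in general: among the 455 genes past the SD and mean limits it was farthest from the gene's median in 69, and array 4 in 172. Without array 2, 10 of the 16 still had a correlation of at least 0.9, but only 5 met all limits (Ucp1, Adipoq, Car3, Ly6d and Upk2), and the correlations of Cox8b, Cidea and Cidec were 0.88, 0.88 and 0.83.

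**Figure D3:**
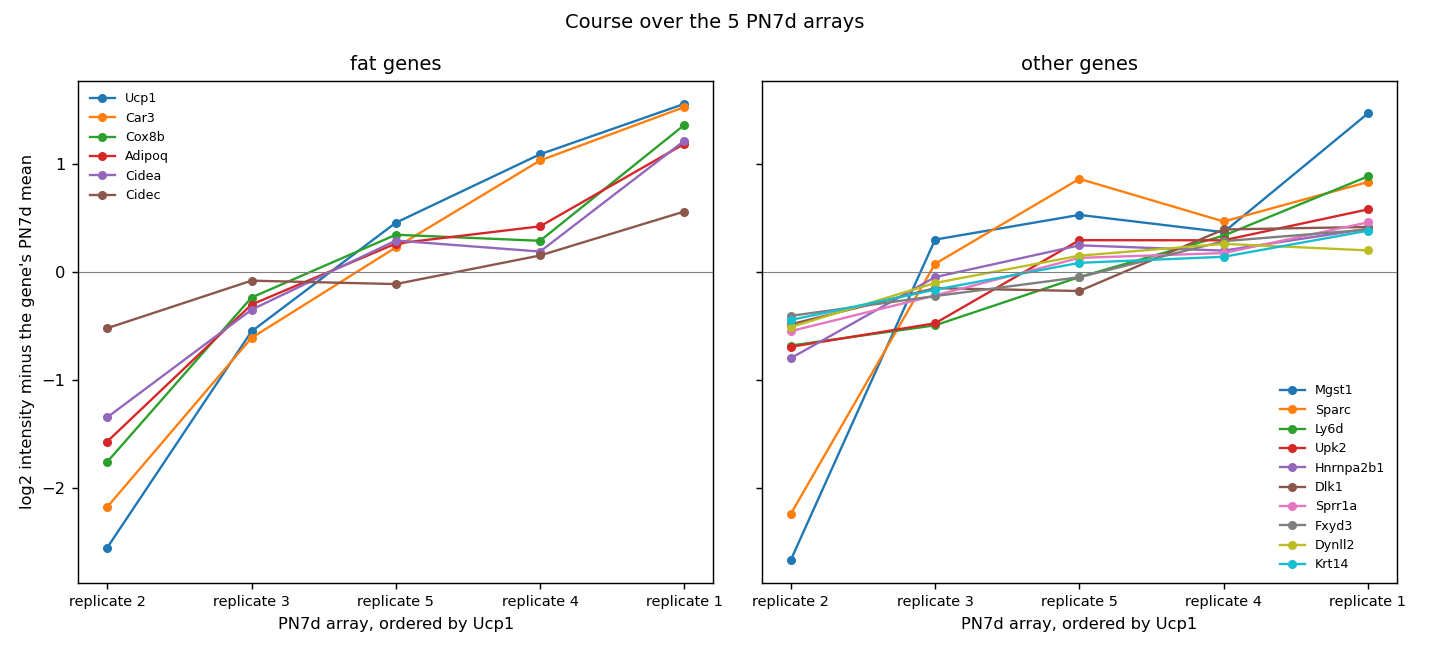
Log2 intensity minus the gene's own PN7d mean (vertical axis) on the 5 PN7d arrays, ordered from the lowest to the highest Ucp1 (horizontal axis), for the 6 fat genes and the 10 other genes. Each line is 1 gene. All lines are lowest at replicate 2, and those of Mgst1 and Sparc lie near or above their mean on the other 4 arrays.

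A correlation over 5 arrays is a weak criterion by itself. With no limit on SD or mean, 265 of the 15967 genes correlated with Ucp1 at 0.9 or more, 86 of which had a mean above 6.5 and an SD under 0.3. The limits left 455 genes, and the 16 members are 3.52% of them. In the opposite direction 3 genes reached a correlation of -0.9 or below: Angptl4, a secreted inhibitor of lipoprotein lipase that fat cells and other tissues make (-0.97, lowest at 9.34 on array 1 and highest at 10.21 on array 2), Pink1, a mitochondrial kinase (-0.96), and Sdc4, a cell surface proteoglycan (-0.92).

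Just inside the correlation limit were Cidec (0.914), Dlk1 (0.905) and Ly6d (0.903). Just outside were Scd1, the stearoyl-CoA desaturase of fat and other tissues (0.890), Ces1d, a carboxylesterase of liver and fat (0.885), and Bckdhb, a subunit of the branched-chain keto acid dehydrogenase (0.882). At the SD limit, Krt14 (0.315), Dynll2 (0.316) and Fxyd3 (0.336) were just inside, and Gstm1 (0.292), Celf2 (0.287) and Tsc22d1 (0.258) just outside. The mean was the only limit that Mrap missed, at 6.40 with a correlation of 0.94. Mrap is the accessory protein of the corticotropin receptor, made in the adrenal and in fat.

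Most genes that mark fat cells were not members. Of 60 measured genes on the 2 adipocyte lists, 28 had a PN7d mean of at most 6.5, 22 had an SD under 0.3, 4 had a correlation under 0.9 and 6 were members. Among the dim ones, several still leaned the way of Ucp1: Adig, an adipogenesis gene, stood at 7.17 on PN7d array 1 and 5.95 on array 2, Slc36a2, an amino acid transporter of brown fat, at 6.65 and 5.95, and Otop1 at 6.40 and 5.82. Plin4, a lipid droplet coat protein, missed the correlation limit at 0.82, with 7.34, 6.24, 7.13, 7.78 and 6.73 on arrays 1 to 5 and 5.98 at E16d. Probes of other defining genes were at the level of dim probes on all PN7d arrays. Among them were Fabp4, the fatty acid binding protein of adipocytes (PN7d mean 6.02, correlation 0.047), Prdm16, a regulator of brown fat identity (5.81), and Elovl3 (5.82). A dim probe, for these and for other genes, does not show that the transcript is absent. Lpl, lipoprotein lipase, was bright and also lowest on array 2 (9.78, the others 10.05 to 10.42; correlation 0.82), with an SD of 0.25, while Pck1, an enzyme of glucose synthesis, ran another way (PN7d mean 10.22, correlation -0.31). Of the 22 brown adipocyte genes that were not members, 8 were lowest on array 2, where 20.9% of all genes were. Of the 32 general adipocyte genes that were not members, 16 were lowest there. Both remainders had their lowest mean on array 2 and their highest on array 1. These were 7.37 and 7.47 for the first, and 7.33 and 7.59 for the second. A low array 2 was not particular to the adipocyte lists. Lipogenesis enzymes and liver markers were also lowest in mean on array 2, though highest on array 5. Their means spanned 0.187 and 0.225 log2, against 0.107 for the brown and 0.258 for the general remainder. The nerve and Schwann cell list was, like both remainders, lowest in mean on array 2 and highest on array 1, with a span of 0.226 log2.

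Members were counted on the lists of the fuel pathways that brown fat uses, where 0.100% of all genes were members and lists of this size would hold about none at that share. Of the respiratory chain subunits, 1 of 65 measured was a member, Cox8b, and of the TCA cycle enzymes, the fatty acid oxidation enzymes and the lipogenesis enzymes 0 of 20, 0 of 23 and 0 of 18. Cox7a1, the muscle and brown fat form of another cytochrome oxidase subunit, was highest on array 1 (9.66) and 8.60 to 8.85 on the others, with a correlation of 0.66. The 64 respiratory chain genes besides Cox8b were lowest in mean level on array 4 (10.67) and highest on array 1 (10.86).

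The remaining lists, of muscle, adrenal, liver, blood, endothelial, nerve and nephron cells, gave no members. Skeletal muscle markers did differ between PN7d arrays, in another order: Acta1, skeletal actin, stood at 8.87, 6.26, 7.95, 7.02 and 6.23 on arrays 1 to 5 (correlation with Ucp1 0.53), and Ckm was at the level of dim probes on all of them. Of 26 muscle markers measured, 11 were at or below 6.22 on all PN7d arrays, and their summed intensity ran from 2975 to 3927. Pvalb, the brightest of the muscle list and also a gene of the distal tubule, was highest on array 2 (10.82). Of the other lists, the brightest PN7d genes were Scarb1 for the adrenal (correlation 0.75, SD 0.085), Ttr for liver (0.42, SD 0.23), Hba-a1 for red cells (-0.83, SD 0.13), Adgre1 for macrophages (0.76, SD 0.15), Cd79b for lymphocytes (-0.25, SD 0.11), Aqp1 for endothelium (-0.67, SD 0.15) and Pmp22 for nerve (0.40, SD 0.15). The defining adrenal and liver genes Cyp11a1 and Alb were at the level of dim probes, at 5.95 and 5.88. The nerve and Schwann cell list, without members, was lowest in mean level on array 2 (6.42) and highest on array 1 (6.65). On array 2, 6 of its 10 genes were lowest, where 20.9% of all genes were. Mbp, a myelin protein, stood at 7.66 on array 1 and 6.10 to 6.27 on the others. The part of any other cell type in the members' spread was not tested.

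Between the ages, as a description, the 6 fat genes all had higher means at PN7d than at either earlier age, while the 10 others were mixed. Among those 10, Ly6d, Krt14 and Sprr1a had higher means at PN7d than at E16d. Ly6d and Krt14 were also higher in mean than at PN1d. With genes dim on all arrays of an earlier age set at 6.22 there, the median difference from E16d was at least 2.32 log2 for the fat genes, 4 of which were at that bound, and was -0.61 for the others, against 0.0016 over all 9529 genes above the level of dim probes at 1 age or more. From PN1d it was at least 2.32, with the same 4 genes at the bound, and -0.37, against 0.0083. All 5 PN7d arrays lay above all 5 E16d arrays in 7 of the 16 (the 6 fat genes and Krt14), where 25.3% of all genes did so, and below them in 3 (Hnrnpa2b1, Dlk1 and Dynll2), where 24.8% did. Against PN1d, 5 were higher (the fat genes except Cidec; 14.4% of all genes) and 1 was lower (Hnrnpa2b1; 13.4%). Since the members were selected on the PN7d arrays, nothing is read from these shares. The summed intensity of the 25 brown adipocyte genes ran from 5644 to 6197 at E16d, 9154 to 10190 at PN1d and 11616 to 17326 at PN7d, where it includes kidney-expressed genes such as Fabp3, and 14, 14 and 7 of them were at or below 6.22 on all arrays of the age.

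The comparison of PN1d with E16d was fitted with limma on the arrays of these ages, with Benjamini-Hochberg adjustment over 9529 genes. The PN7d arrays had a part in which genes were tested, through the brightest probe and through the filter, which a gene could pass at any age. Of the 16 genes, 3 were higher at PN1d (23.1% of all genes were) and 5 were lower (26.7% were). Ucp1, Cidea, Cox8b and Adipoq passed the filter only through PN7d. With the filter on the E16d and PN1d means, which left 9294 genes, the calls were the same 3 higher and 5 lower of 12 members, against 23.2% and 27.4% of all genes. These 4 fat genes were at the level of dim probes on all 10 arrays, so no difference is given for them. Cidec, at 6.18 to 6.23 and 6.20 to 6.34, did not pass.

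Car3 was the fat gene that changed, falling by 0.56 log2 from E16d to PN1d (standard error 0.093, limma adjusted p = 0.000296), with every PN1d array below every E16d array. In a fit that also held the PN7d arrays this call was lost (adjusted p = 0.352).

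Among the other genes, Krt14 rose by 0.56 log2 (standard error 0.092, limma adjusted p = 0.00026), from 5.96 to 6.45 over the E16d arrays to 6.68 to 6.99 over the PN1d arrays. Dlk1 fell by 0.64 (standard error 0.13, limma adjusted p = 0.00128), Hnrnpa2b1 by 0.52 (standard error 0.13, limma adjusted p = 0.00508) and Dynll2 by 0.37 (standard error 0.054, limma adjusted p = 0.000107). In all 4 genes the arrays of both ages did not overlap, and the calls held with each array left out in turn. With the mean of a gene's probes in place of the brightest, the falls were smaller. They were -0.36 for Car3, -0.35 for Hnrnpa2b1 and -0.20 for Dynll2, and still passed (limma adjusted p = 0.000879, 0.000174 and 0.000729). That mean takes in probes that were dim at both ages, namely the second probes of Car3 and Dynll2 and the dimmest of Hnrnpa2b1. The second bright probe of Hnrnpa2b1 fell from a mean of 10.20 to 9.42, against 10.85 to 10.32 for the brightest.

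Ly6d, Sprr1a and Fxyd3 passed the test narrowly. Ly6d was at least 1.19-fold higher at PN1d (limma adjusted p = 0.0366), carried by arrays 2 and 3. Sprr1a was higher by 0.36 (standard error 0.14, limma adjusted p = 0.0486) and Fxyd3 lower by -0.39 (standard error 0.15, limma adjusted p = 0.0426), and in all 3 the arrays of both ages overlapped. These calls were lost in 6, 7 and 7 of the 10 fits that left out 1 array, with adjusted p up to 0.083, 0.118 and 0.095. Upk2, with a difference of 0.049 and a confidence interval from -0.53 to 0.63, Sparc (-0.25) and Mgst1 (0.15) did not pass.

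**Figure D4:**
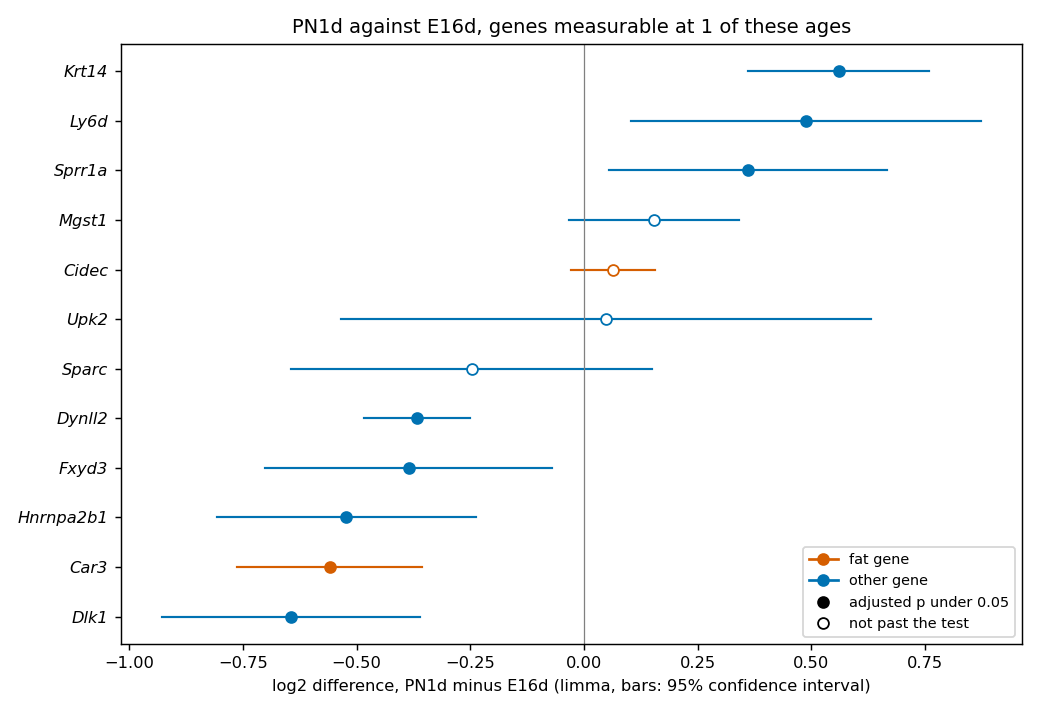
Log2 difference between PN1d and E16d (horizontal axis, above 0 is higher at PN1d) for the 12 genes with a mean above 6.22 at 1 of these ages, with 5 arrays at each. Ly6d was below 6.22 on all E16d arrays, and Car3 at or below it on 4 of the 5 PN1d arrays, so their estimates are not measured folds. Points are limma estimates, filled where the adjusted p over 9529 genes is under 0.05, and bars are 95% confidence intervals. Krt14 has the highest estimate at 0.56 and Dlk1 the lowest at -0.64.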

How the data were processed

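RNA of 15 mouse kidney samples, 5 at each of E16d, PN1d and PN7d by the labels, was read on Illumina MouseRef-8 arrays. The authors quantile normalized the scanned intensities, and the deposited log2 values were used as they are. The log2 scale was taken from the values: the highest, 13.80, would be an intensity of 988860 as a natural logarithm, above the 65535 of a 16-bit scanner, and is 14306 as log2. A second table of 30 columns (15 of signals, 15 of detection p-values) names no age or replicate and was not used, so the planned background correction was run on the log2 values with normexp (offset 50).

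Probes were named by the platform annotation (20984 of 24613 with 1 symbol, 20968 matched by Entrez number, 0 symbols changed). The brightest probe by the mean of 15 arrays stood for each of 15967 genes. PN1d was compared with E16d on those 10 arrays with limma 3.58.1 in R 4.3.3, over 9529 genes whose mean at 1 age or more was above 6.22 (an intensity of 74.5), with Benjamini-Hochberg adjustment and calls at an adjusted p under 0.05. A gene at or below 6.22 on all arrays of an age was given a bound and no fold. Precision is limited by the number of arrays.

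The genes, gene lists and tests were chosen with earlier results of these data known. Named were all members, genes next to the limits, the brightest gene of each marker list, and genes chosen after their values were seen (the listed fat, epithelial and muscle genes that were not members, and the genes with negative correlations). The scripts were tested on simulated data. Alternatives covered the limits, the scale, the reference gene, the probes, the filter, the variance model, the replicate number as a block and each array left out. List levels without the members and medians with dim genes at their bound were added after seeing the data. Python 3.11.15 and matplotlib 3.10.9 were used for the figures.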

Additional observations from a re-analysis of the deposited data

Results flagged for a closer look

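In 48 groups of 5 arrays (16 genes at 3 ages), 4 held an array far from the other 4 by Dixon's criterion. Chance meets it in about 1 group in 20 where groups are unselected. The PN7d groups were selected on these same values and the genes run together, so the count cannot be set against that rate. Mgst1 on PN7d array 2 was 6.23 where the other arrays averaged 9.56, and Sparc on the same array was 7.77 where the others averaged 10.56. Without that array neither gene correlated with Ucp1 at 0.9, and the source of its low values was not tested. Krt14 on E16d array 5 was 5.96 where the others averaged 6.40, and Cidec on E16d array 3 was 6.23 where the others averaged 6.19, a gap of a few hundredths at the level of dim probes.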

How the results depend on the processing

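The number of genes that met the limits moved with each of them: 9 at a correlation of 0.95, 32 at 0.8, 26 at an SD of 0.2, 9 at an SD of 0.5 and 9 at a mean above 7.5. With 1 PN7d array left out it ranged from 15 to 28, and without array 2 only 5 of the 16 were shared. Ucp1, Adipoq and Car3 were members under all 16 alternatives. For Ucp1 and Adipoq this was partly fixed in advance, since the correlation of a gene is 1 by construction where it is itself the reference. Both were also part of the reference that averaged Ucp1, Cidea, Cox8b and Adipoq. On the linear scale 16 genes qualified and 12 were shared, with Mgst1, Sparc, Hnrnpa2b1 and Dynll2 lost.

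For PN1d against E16d, the members called higher were 1 with all 15 arrays in the fit, 1 without the filter on dim genes, 1 with a trended and robust variance, 0 with the filter at the upper quartile (where Krt14, Ly6d and Sprr1a were not tested) and 1 to 3 with 1 array left out. It was 1 without each of E16d arrays 1, 3, 4 and 5 and PN1d array 2. The members called lower were 3 with all 15 arrays and 4 to 5 with 1 array left out. Mgst1 passed without PN1d array 3 (adjusted p = 0.0494). Adipoq passed with the trended variance (0.0381) and Cidea with a per-gene test of equal variance (0.0415), though both are dim on all 10 arrays. The causes of these changes were not tested. The members whose PN7d arrays were all lower than at PN1d ranged from 1 to 2 with 1 PN7d array left out, and were 2 without array 1.

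With the replicate number as a replicate block, 2182 genes were higher and 2525 lower, against 2197 and 2543 without it, and 3 and 5 members as before. Over the 9529 genes tested, the numbers gave no sign of pairing the samples. Deviations of equal numbers correlated at -0.046 to 0.098, and 1 of 5 E16d arrays was closest to its own number. Standard errors in the block fit fell for some members, from 0.131 to 0.070 for Dlk1 and from 0.145 to 0.078 for Fxyd3. They rose for others, from 0.093 to 0.103 for Car3 and from 0.054 to 0.060 for Dynll2. The 4 fat genes at the level of dim probes at E16d and PN1d have no measurable order there, so whether genes tracked Ucp1 at those ages cannot be told.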
